A study of Mus musculus with 20 samples.

Results

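The 10 genes described here make, clear or consume nicotinamide adenine dinucleotide (NAD+), and were chosen by name among the 57010 genes of the deposited count table: Nampt, Nmrk1, Naprt, Nmnat1, Nadsyn1, Qprt, Nnmt, Cd38, Sirt1 and Sirt3. All 10 passed the filter on low counts in liver and in kidney. The libraries held polyadenylated RNA from both organs, liver and kidney, of 10 male mice of the UM-HET3 stock, which is genetically heterogeneous, so that animals differ in genotype. At 12 months of age, 6 mice received the 7c cocktail and 4 received vehicle (DMSO and PEG300) for 28 days from subcutaneous osmotic pumps. The labels give replicate numbers only, and the liver and kidney library of the same treatment and number were taken as 1 mouse. The 7c cocktail, which is used for partial chemical reprogramming, held repsox, tranylcypromine, DZNep, CHIR99021, forskolin and TTNPB at 0.1 mg/kg/day each and valproate at 1 mg/kg/day. Control mice carried the same kind of pump with the solvent alone.

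NAD+ carries electrons in metabolism and is also used up as a substrate, by the sirtuin deacylases, by poly(ADP-ribose) polymerases and by the ectoenzyme CD38. Cells rebuild it from nicotinamide (salvage), from nicotinic acid (the Preiss-Handler route) or from tryptophan (the de novo or kynurenine route). The liver is known as the main site of the tryptophan route and releases nicotinamide that other organs salvage.

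The comparisons were 7c against vehicle within each organ and liver against kidney within each treatment. Levels are given as CPM, the counts of a gene relative to the scaled total of its library, on 1 TMM scale for all 20 libraries, and levels of different genes are compared only per kb of exon. The libraries held 28383359 to 34153084 counts in liver and 27855849 to 64872451 in kidney, and every 7c liver library was smaller than every vehicle liver library. The summed level of 8 hepatocyte markers was 93803 to 133172 CPM in the livers, and that of 6 proximal tubule markers was 26664 to 55649 CPM in the kidneys and 0.629 to 2.00 CPM in the livers. The liver of 7c mouse 6 stood apart by 762 CPM of 6 skeletal muscle markers (0.420 to 2.19 CPM in the other livers), and the kidneys of 7c mouse 5 and vehicle mouse 2 by 1 proximal tubule gene, the androgen-regulated Kap (48544 and 41697 CPM, against 18833 to 30505 CPM in the other kidneys). The other 5 proximal tubule markers did not set these 2 kidneys apart, with summed levels of 7105 and 7082 CPM inside the range of 6867 to 8284 CPM over all kidneys. In bulk tissue, fewer cells of a type and less RNA per cell cannot be told apart.

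None of the 10 genes was called between 7c and vehicle in either organ. In edgeR's quasi-likelihood test, 0 of 10 passed a Benjamini-Hochberg adjusted p of 0.05 in liver, where 0.00666% of the 15012 genes tested were called, and 0 of 10 in kidney, where 0% of 17749 were called. At an unadjusted p under 0.05 the counts of members were again 0 and 0, against 3.76% and 2.61% of all genes, and DESeq2, limma-voom and edgeR's likelihood ratio test likewise called 0 members in both organs. The median log2 fold change of the members was 0.06 in liver and 0.02 in kidney, beside medians over all genes of 0.0017 and -0.0057. Exact permutation tests over all 210 splits of 6 against 4 gave two-sided p-values of 0.124 or more for the 20 gene and organ pairs, where the smallest p the design allows is 0.00476. For 8 of 10 genes in liver and 9 of 10 in kidney the 95% confidence interval of the 7c effect lay inside a 2-fold change in either direction, the exceptions being Nmrk1 and Nnmt in liver and Nnmt in kidney. The difference of the 7c effect between the organs was tested in 1 fit over 14163 genes and called 0 members (0.00706% of all genes), with 0 at an unadjusted p under 0.05 (2.49% of all genes) and a lowest unadjusted p of 0.370.

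**Figure D1:**
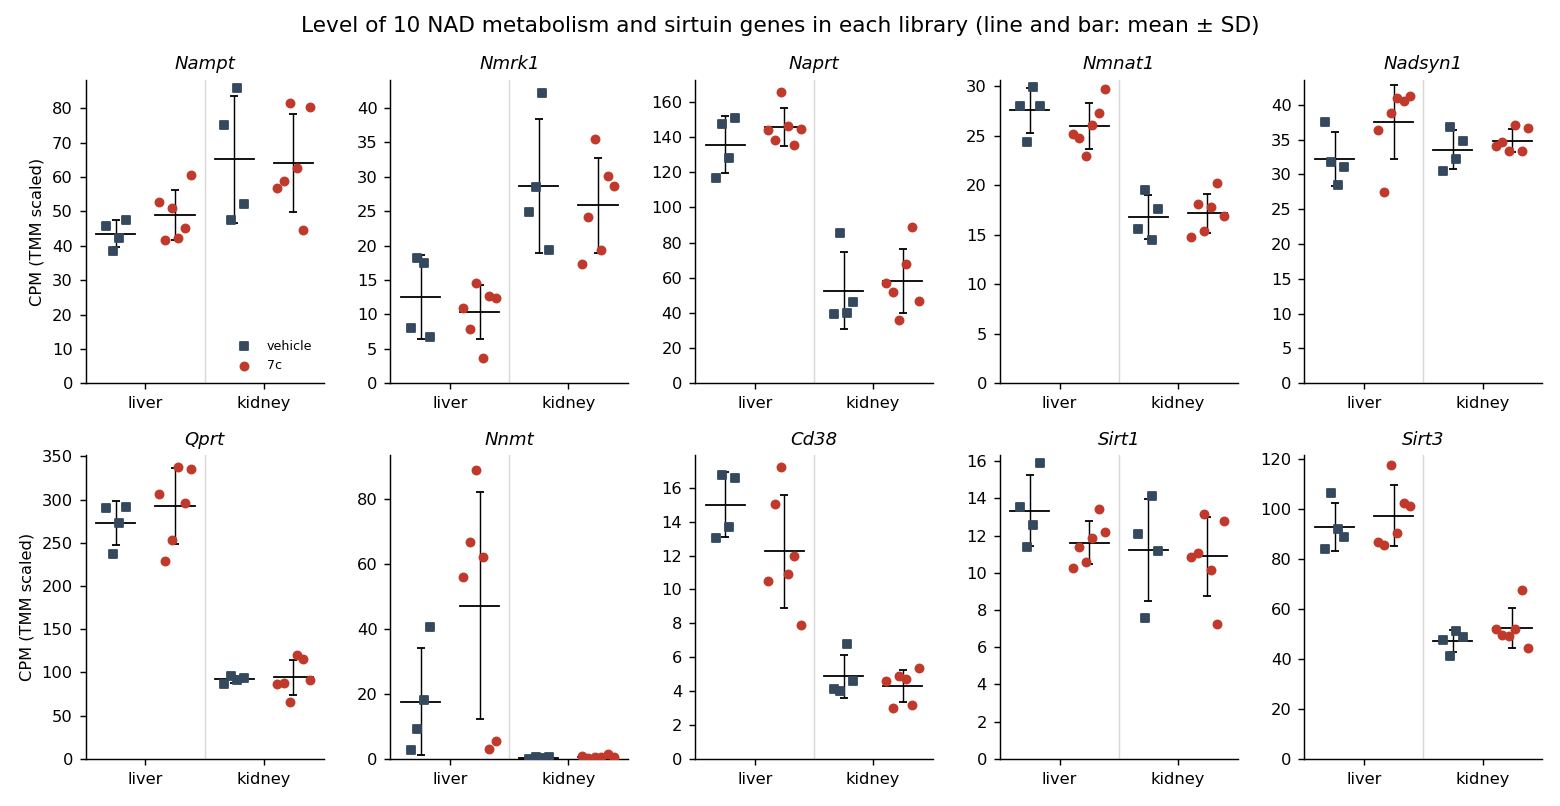
CPM (linear axes that start at 0) of the 10 genes in each library, with vehicle as squares and 7c as circles; lines and bars give the mean ± SD of 4 vehicle and 6 7c samples. Nnmt in liver ran from 2.77 to 89.0 CPM, whereas Nadsyn1 in kidney stayed between 30.4 and 37.1 CPM.

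Nampt, the rate-limiting enzyme of salvage from nicotinamide, lies on chromosome 12 (32869544 to 32903368, plus strand, GRCm39). In liver it stood at 52.9, 41.7, 51.1, 42.2, 45.1 and 60.5 CPM in 7c mice 1 to 6 and at 45.7, 38.6, 42.1 and 47.5 CPM in vehicle mice 1 to 4. Of the 6 7c livers, 3 lay above all 4 vehicle livers and the others lay among them, with the highest value in the liver that held muscle markers, whose part was not tested. The log2 fold change of 7c over vehicle in liver was 0.14 (SE 0.12, 95% interval -0.12 to 0.41). In kidney, Nampt ran from 44.7 to 81.4 CPM with 7c and from 47.5 to 86.0 CPM with vehicle, the groups overlapped almost completely, and the log2 fold change was -0.03 (SE 0.21). The 2 lowest kidneys were those of 7c mouse 5 (44.7 CPM) and vehicle mouse 2 (47.5 CPM), the same pair that was highest in Kap.

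Transcription of Nampt is known to follow the circadian clock, so clock genes are given beside it. Of 13 clock genes, all tested in both organs, 0 were called with 7c, and 3 in liver (Clock -0.37, Dbp 2.65 and Per3 1.62 on the log2 scale) and 0 in kidney were at an unadjusted p under 0.05, against 3.76% and 2.61% of all genes. The other 10 clock genes ranged in liver from -0.32 (Cry1, SE 0.40) to 1.14 (Per1, SE 0.73) and 2.22 (Ciart, SE 1.21) on the log2 scale. Dbp, an output gene of the clock, was at 30.2, 58.4 and 117 CPM in the livers of 7c mice 4, 5 and 6 and at 0.324 to 6.36 CPM in the other 7 livers. The kidneys of the same 3 mice held 76.1 to 93.0 CPM of Dbp against 5.14 to 29.0 CPM in the others, and their Bmal1 was at 2.00 to 2.56 CPM against 7.32 to 22.1 CPM. These 3 mice, all of the 7c group, therefore stood apart from the other 7 in Dbp in both organs and in Bmal1 in kidney. Their Nampt was at 42.2, 45.1 and 60.5 CPM in liver, against 41.7 to 52.9 CPM in the other 7c mice. In kidney it was at 62.5, 44.7 and 80.4 CPM, against 56.9 to 81.4 CPM. The 60.5 CPM was the highest of all livers and the 44.7 CPM the lowest of all kidneys. A link between these clock genes and Nampt was not tested. With these 3 mice left out, an alternative chosen after seeing the data, the 7c effect on Nampt in liver was 0.14 on the log2 scale and 0 members were called in either organ.

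The E-box CACGTG, a palindrome that clock factors and several other factors bind, was looked for in the 250 bases before the RefSeq start of the members, of which 8 were in the RefSeq promoter table (GRCm38.p6). Of all 32851 windows of that length in the table, 6.02% held it and 0.429% held it 2 or more times. Among the members it was found in 1 gene, Sirt1, at 115 and 43 bases before the start. The windows of Sirt1 (chr10:63339036-63339285, minus strand) and Nampt (chr12:32820085-32820334, plus strand) are shown, with any CACGTG in capitals, because these are the member that holds the letters and the member known for clock control.
Sirt1: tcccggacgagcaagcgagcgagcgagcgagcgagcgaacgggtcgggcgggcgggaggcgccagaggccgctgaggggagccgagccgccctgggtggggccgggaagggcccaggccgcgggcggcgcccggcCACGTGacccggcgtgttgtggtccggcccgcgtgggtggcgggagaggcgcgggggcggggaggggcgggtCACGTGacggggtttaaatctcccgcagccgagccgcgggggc
Nampt: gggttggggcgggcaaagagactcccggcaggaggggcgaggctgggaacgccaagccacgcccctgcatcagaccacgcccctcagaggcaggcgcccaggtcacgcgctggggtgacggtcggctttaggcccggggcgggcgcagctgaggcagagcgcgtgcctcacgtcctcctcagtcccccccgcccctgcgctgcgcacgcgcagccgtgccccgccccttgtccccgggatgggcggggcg
A match describes the letters only, and no match in this window says nothing about binding elsewhere. Naprt and Nnmt were not in the table.

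Nmrk1, the kinase that phosphorylates nicotinamide riboside, lies on chromosome 19 (18608774 to 18629831, plus strand, GRCm39). Its liver level was 10.95, 7.91, 14.6, 3.72, 12.7 and 12.3 CPM in 7c mice 1 to 6 and 7.95, 18.3, 17.4 and 6.71 CPM in vehicle mice 1 to 4. The highest liver held 3.93 times the lowest among the 7c mice and 2.72 times among the vehicle mice, and the SD within groups (0.73 on the log2 scale) was above that of 81.6% of the genes tested in liver. The log2 fold change of 7c over vehicle was -0.30 (SE 0.36, 95% interval -1.07 to 0.47) in liver and -0.16 (SE 0.24) in kidney, where levels were 17.3 to 35.5 CPM with 7c and 19.3 to 42.2 CPM with vehicle. Exons of Nmrk1 overlap exons of Ostf1 on the opposite strand, and the strand setting of the counting is not given in the sources used here.

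Naprt, Nmnat1 and Nadsyn1 carry the Preiss-Handler route and its last steps. Naprt, which joins nicotinic acid to ribose phosphate (chromosome 15, 75762805 to 75766413, minus strand, GRCm39), was at 136 to 166 CPM in the 7c livers and 117 to 151 CPM in the vehicle livers, with a log2 fold change of 0.08 (SE 0.10). In kidney it was at 56.9, 51.8, 36.1, 67.9, 89.0 and 46.9 CPM in 7c mice 1 to 6 and at 39.2, 85.3, 39.9 and 46.3 CPM in vehicle mice 1 to 4. The 2 highest kidneys, 7c mouse 5 and vehicle mouse 2, again came 1 from each group, and the log2 fold change was 0.13 (SE 0.26). Leaving out vehicle mouse 2 moved it to 0.46 and leaving out 7c mouse 5 moved it to -0.03, with no call either way. The same 2 kidneys were the 2 highest in Kap and 7c mouse 4 came next in both genes, whereas the summed level of the other 5 proximal tubule markers was mid-range in the pair. What Naprt and Kap share in these kidneys was not tested. Exons of Naprt overlap exons of Eef1d on the same strand, so the Naprt counts are uncertain there.

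**Figure D2:**
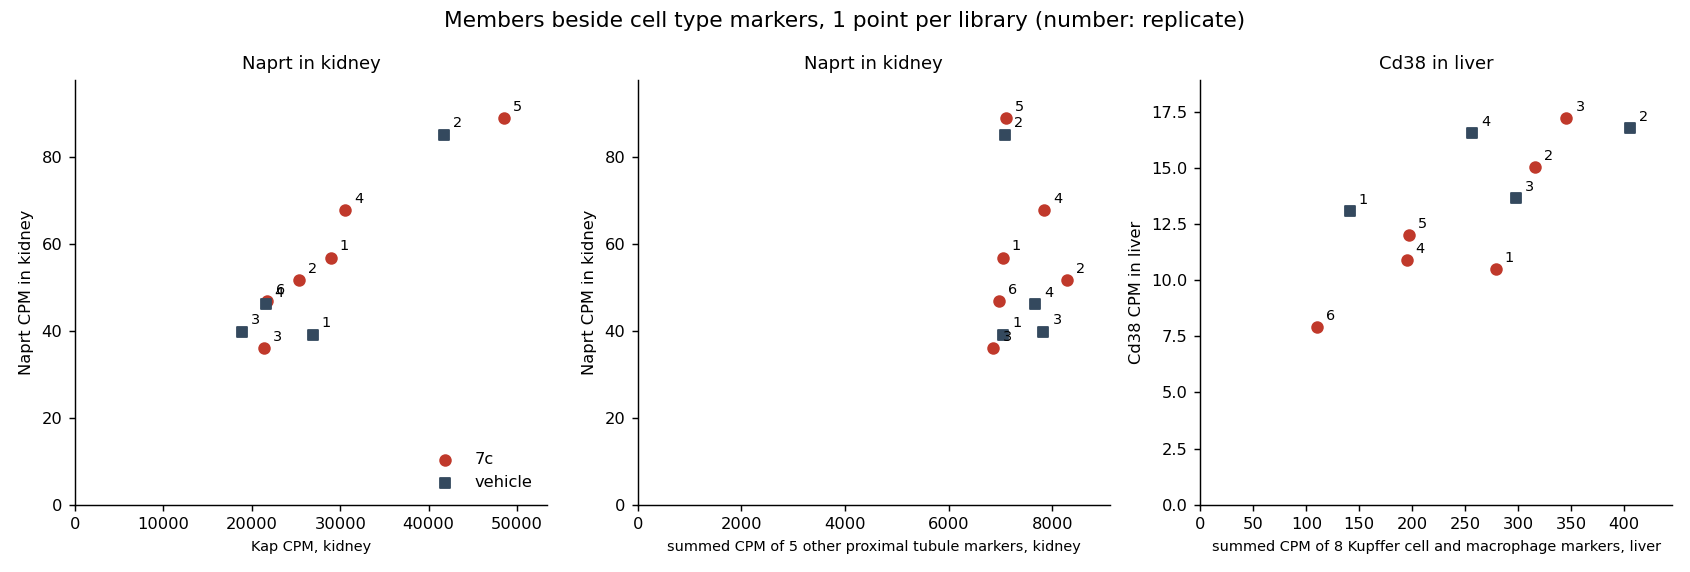
Naprt CPM in the 10 kidneys against Kap CPM (left) and against the summed CPM of 5 other proximal tubule markers (middle). Right, Cd38 CPM in the 10 livers against the summed CPM of 8 Kupffer cell and macrophage markers. Each point is 1 library with its replicate number, circles for 7c and squares for vehicle; the kidneys of 7c mouse 5 and vehicle mouse 2 sit at the upper right on the left and at the top, among the other kidneys along the horizontal axis, in the middle, and the liver of 7c mouse 6 at the lower left on the right.

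Nmnat1, the nuclear enzyme that adds the adenylyl group and completes NAD+ or its acid form (chromosome 4, 149552026 to 149569680, minus strand, GRCm39), differed little among mice, with 23.0 to 29.8 CPM in the 7c livers and 24.4 to 29.9 CPM in the vehicle livers. Its log2 fold change was -0.11 (SE 0.11) in liver and 0.02 (SE 0.13) in kidney, where it was at 14.5 to 20.2 CPM. Exons of Nmnat1 overlap exons of Lzic and Tmem274 on the opposite strand. Nadsyn1, the synthetase that amidates the acid form to NAD+ (chromosome 7, 143349314 to 143376610, minus strand, GRCm39), was at 36.3, 27.5, 38.9, 41.0, 40.5 and 41.2 CPM in the 7c livers and at 37.6, 31.8, 28.5 and 31.0 CPM in the vehicle livers. Above every vehicle liver lay 4 of the 6 7c livers and below them all lay 1, and the log2 fold change of 0.20 (SE 0.13, 95% interval -0.08 to 0.47) did not pass. In kidney Nadsyn1 was at 33.3 to 37.1 CPM with 7c and 30.4 to 36.8 CPM with vehicle, and its SD within groups (0.09 on the log2 scale) was above that of 1.77% of the genes tested there.

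Qprt, which turns quinolinate from the tryptophan route into nicotinic acid mononucleotide (chromosome 7, 126704596 to 126721398, minus strand, GRCm39), had 229 to 338 CPM in the 7c livers and 237 to 291 CPM in the vehicle livers. Its log2 fold change was 0.07 (SE 0.12) in liver and 0.02 (SE 0.15) in kidney, where it stood at 65.3 to 120 CPM with 7c and 87.2 to 96.4 CPM with vehicle. The 2 highest and the 2 lowest kidneys were 7c samples, so that the treated kidneys spanned the vehicle range on both sides.

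Nnmt methylates nicotinamide for excretion and lies on chromosome 9 (48448913 to 48518959, minus strand, GRCm39). It had the widest spread of the 10 genes. The liver level was 56.0, 66.8, 89.0, 62.0, 3.18 and 5.62 CPM in 7c mice 1 to 6 and 2.77, 9.11, 18.0 and 40.6 CPM in vehicle mice 1 to 4. The level was above every vehicle liver in 4 of the 6 7c livers, while 7c mice 5 and 6 were among the 3 lowest of all 10 livers. The highest liver held 32.1 times the lowest, and the SD within groups (1.92 on the log2 scale) was above that of 99.3% of the genes tested in liver. The log2 fold change of 7c over vehicle was 1.38 (SE 0.84, 95% interval -0.42 to 3.19), which was not called (adjusted p = 1.00 in edgeR's quasi-likelihood test, unadjusted p = 0.122). It was 1.03 without vehicle mouse 1 and 2.21 without vehicle mouse 4, with no call in either. With 7c mice 4 to 6 left out, a choice made after seeing the data, it was 1.97 (unadjusted p = 0.00815, adjusted p = 0.999 in the same test). That choice takes out 7c mice 5 and 6, the 7c livers low in Nnmt. The larger value therefore follows from the choice, and its p-value cannot be read as a test of 7c.

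In kidney, Nnmt was close to the limit of these libraries, at 0.391 to 1.55 CPM with 7c and 0.125 to 0.582 CPM with vehicle, which rested on 6 to 64 counts per library. The log2 fold change was 0.84 (SE 0.51, 95% interval -0.28 to 1.96). The groups overlapped, with 2 of the 6 7c kidneys above every vehicle kidney and that of 7c mouse 5 highest. Fat cells are known for high Nnmt, and the summed level of 8 fat cell markers was 66.1 to 174 CPM in the 7c kidneys and 49.3 to 76.7 CPM in the vehicle kidneys, with none of the 8 at 0 in all kidneys of a group. Fabp4, which endothelial cells also express, gave the largest share of that sum in 8 of 10 kidneys, and Adipoq, which is more particular to fat cells, was at 1.34 to 9.14 CPM in the 7c kidneys and 0.0896 to 2.01 CPM in the vehicle kidneys. The kidney of 7c mouse 5 held 174 CPM of these markers, and that of 7c mouse 3 held 166 CPM beside 0.555 CPM of Nnmt. The part of fat content in the kidney values of Nnmt was not tested.

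Cd38, an NAD+ glycohydrolase of the cell surface (chromosome 5, 44025875 to 44069717, plus strand, GRCm39), was at 10.5, 15.0, 17.2, 10.9, 12.0 and 7.89 CPM in the 7c livers and at 13.1, 16.8, 13.7 and 16.6 CPM in the vehicle livers. Of the 7c livers, 4 lay below every vehicle liver and 1 above, and the log2 fold change was -0.31 (SE 0.20, 95% interval -0.74 to 0.12). The protein is known from immune and sinusoidal cells, and the summed level of 8 Kupffer cell and macrophage markers ran from 110 to 346 CPM in the 7c livers and from 141 to 405 CPM in the vehicle livers. The liver of 7c mouse 6 was lowest in both Cd38 (7.89 CPM) and these markers (110 CPM), and also in 7 endothelial markers (225 CPM, against 323 to 478 CPM in the others). Other livers did not keep this order. Vehicle mouse 1 held 141 CPM of the macrophage markers beside 13.1 CPM of Cd38, and 7c mouse 1 held 279 CPM beside 10.5 CPM. None of these markers was at 0 in all livers of a group, and their part in the Cd38 values was not tested. In kidney Cd38 was at 3.01 to 5.34 CPM with 7c and 3.99 to 6.75 CPM with vehicle, with a log2 fold change of -0.19 (SE 0.22).

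Sirt1, a mainly nuclear deacetylase (chromosome 10, 63154581 to 63217483, minus strand, GRCm39), had 10.2 to 13.4 CPM in the 7c livers and 11.4 to 15.9 CPM in the vehicle livers, with a log2 fold change of -0.23 (SE 0.14, 95% interval -0.53 to 0.08). In kidney it was at 7.27 to 13.2 CPM with 7c and 7.57 to 14.1 CPM with vehicle (log2 fold change -0.06, SE 0.20), and the lowest kidney of each group was again 7c mouse 5 (7.27 CPM) or vehicle mouse 2 (7.57 CPM). Sirt3, the main deacetylase of mitochondria (chromosome 7, 140443577 to 140462311, minus strand, GRCm39), had 85.5 to 118 CPM in the 7c livers and 84.0 to 106 CPM in the vehicle livers, with a log2 fold change of 0.05 (SE 0.11). In kidney it was at 44.4 to 67.7 CPM with 7c and 41.0 to 51.3 CPM with vehicle (log2 fold change 0.14, SE 0.13), and only 7c mouse 5 exceeded 52.1 CPM. Exons of Cd38 (Gm16015), Sirt1 (Herc4) and Sirt3 (Ric8a and Psmd13) overlap those of genes on the opposite strand.

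**Figure D3:**
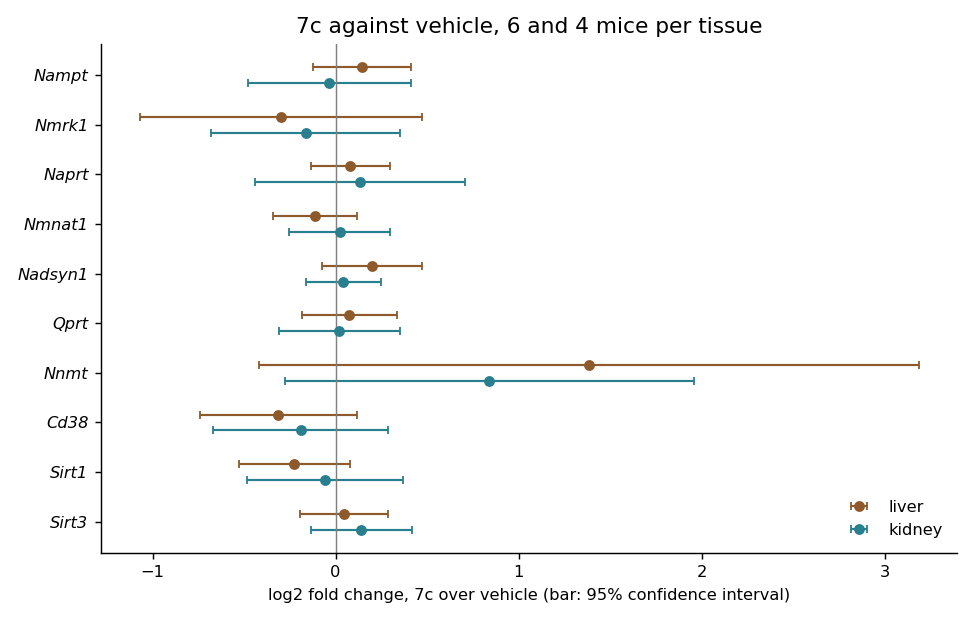
Log2 fold change of 7c over vehicle with its 95% confidence interval for the 10 genes, from edgeR, with liver in brown and kidney in blue-green (6 and 4 mice). All 20 intervals include 0, and the widest belong to Nnmt (-0.42 to 3.19 in liver).

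The other genes of NAD metabolism gave the same count of 0. Of 39 further genes listed by role, 32 were tested in liver and 36 in kidney, 3 passed the filter in neither organ (Ido1, Nmnat2 and Nmrk2), and 0 were called in either organ. At an unadjusted p under 0.05 there were 3 of 32 in liver and 0 of 36 in kidney, beside 3.76% and 2.61% of all genes, with none past the adjusted threshold and an adjusted p of 1.00 each in edgeR's test. These 3, named after their values were seen, were Parp1, the main poly(ADP-ribose) polymerase (47.8 to 56.6 CPM with vehicle and 56.5 to 67.1 CPM with 7c, log2 fold change 0.23, SE 0.09), Haao of the kynurenine route (644 to 749 and 738 to 899 CPM, 0.20, SE 0.09) and Kyat3, a kynurenine aminotransferase (193 to 320 and 148 to 256 CPM, -0.35, SE 0.16). The 5 other sirtuins, Sirt2, Sirt4, Sirt5, Sirt6 and Sirt7, were tested in both organs and were not called.

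Liver and kidney differed in most of the 10 genes. In vehicle mice, 8 of 10 were called, where 57.9% of the 18598 genes tested were called. Of these, 6 were higher in liver (Nnmt, Cd38, Qprt, Naprt, Sirt3 and Nmnat1) and 2 in kidney (Nmrk1 and Nampt), beside 26.8% and 31% of all genes in the respective directions, and Nadsyn1 and Sirt1 were not called. At a change of at least 2-fold the count was 5 of 10 against 40.5% of all genes. The 7c mice gave the same calls for the same 8 genes, where 64% of all genes were called (30.5% higher in liver and 33.4% higher in kidney). The median log2 fold change of liver over kidney among the members was 0.85 in vehicle mice, beside -0.11 over all genes. Organ and the suffix that the liver library names carry in the labels cannot be told apart.

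Both entry enzymes of salvage were higher in kidney. Nmrk1 was at 12.6 ± 6.09 CPM in vehicle livers and 28.7 ± 9.74 CPM in vehicle kidneys (SD, n = 4), a log2 fold change of -1.19 (SE 0.36, adjusted p = 0.0076 in edgeR's test) and -1.32 (SE 0.30) in 7c mice, and 8 of 10 livers lay below every kidney. Nampt was at 43.5 ± 3.97 CPM and 65.2 ± 18.4 CPM, a log2 fold change of -0.58 (SE 0.19, adjusted p = 0.0128 in edgeR's test), with 4 of 10 livers below every kidney. This call was lost without vehicle mouse 1 (log2 fold change -0.53, adjusted p = 0.0572 in edgeR's test) and without vehicle mouse 3 (-0.41, adjusted p = 0.117 in edgeR's test). In 7c mice it was -0.39 (SE 0.16) and was lost without 7c mouse 2, 3 or 4.

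Of the 4 members on the routes from nicotinic acid and tryptophan, Qprt, Naprt and Nmnat1 were higher in liver and Nadsyn1 was not called. Qprt was at 273 ± 25.7 CPM in vehicle livers and 92.3 ± 3.96 CPM in vehicle kidneys, a log2 fold change of 1.56 (SE 0.16), and Naprt was at 136 ± 16.1 and 52.7 ± 22.0 CPM, 1.36 (SE 0.24). For both, each of the 10 livers was above every kidney. Nmnat1 differed less, by 0.72 (SE 0.13), with the same full separation. Nadsyn1 was at 32.2 ± 3.83 CPM in liver and 33.5 ± 2.80 CPM in kidney, with a log2 fold change of -0.06 and a 95% interval of -0.32 to 0.20.

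Among the 10 members Nnmt showed the widest difference between organs, at 17.6 ± 16.6 CPM in vehicle livers and 0.392 ± 0.200 CPM in vehicle kidneys, a log2 fold change of 5.50 (SE 0.98), and the lowest liver (2.77 CPM) was above the highest kidney (1.55 CPM). limma-voom gave a similar size (5.14) that was not called (adjusted p = 0.0561). Cd38 was higher in liver by 1.62 (SE 0.24) and Sirt3 by 0.98 (SE 0.13), each with all 10 livers above every kidney. Sirt1 was at 13.3 ± 1.91 CPM in liver and 11.2 ± 2.74 CPM in kidney and was not called (0.25, SE 0.19, 95% interval -0.15 to 0.64).

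**Figure D4:**
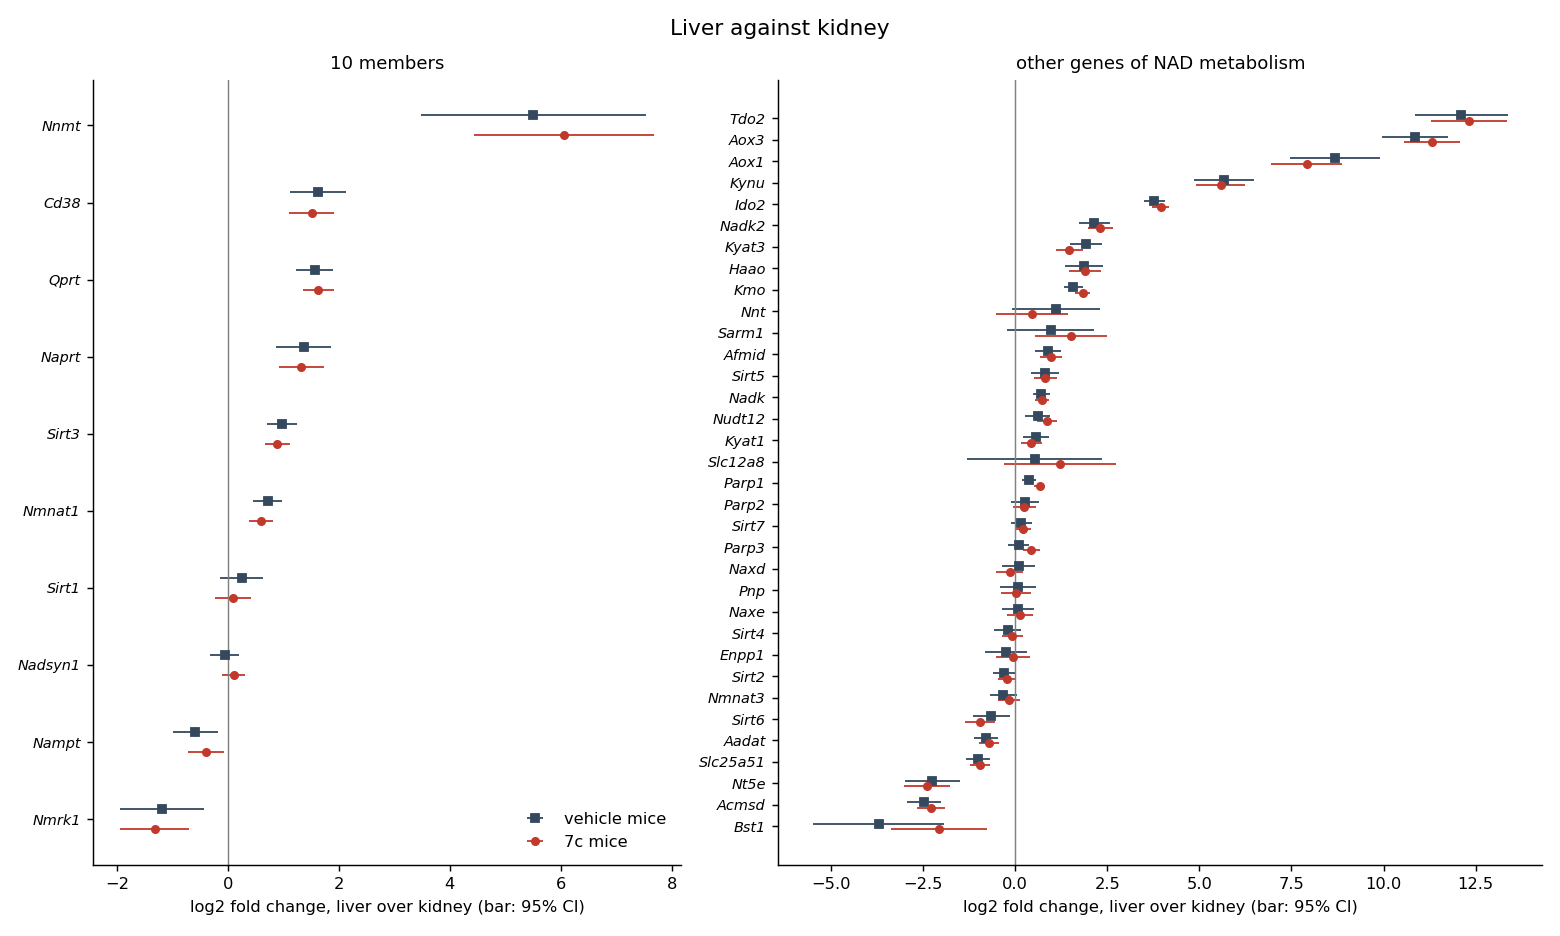
Log2 fold change of liver over kidney with 95% confidence intervals in vehicle mice (squares) and 7c mice (circles), for the 10 members on the left and 34 tested genes of the pathway list on the right. Slc5a8 and Slc22a13, which had 0 counts in all vehicle livers, are not drawn; Tdo2, Aox3 and Aox1 lie farthest toward liver in both treatments, and farthest toward kidney lie Bst1 in vehicle mice (-3.71) and Nt5e in 7c mice (-2.40).

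Of 36 tested pathway genes, 23 were called in vehicle mice (15 higher in liver, 8 higher in kidney) and 25 in 7c mice, beside 57.9% and 64% of all genes, so that these shares lay near the background. Of the 36, 4 passed the filter on low counts in kidney alone (Bst1, Slc12a8, Slc22a13 and Slc5a8), and 3 of these are among the 8 higher in kidney. In the kynurenine route, 8 of 10 tested genes were higher in liver and 2 higher in kidney. Tdo2, which opens the route by oxidising tryptophan, was at 2192 ± 190 CPM in vehicle livers and 0.486 ± 0.221 CPM in vehicle kidneys, and Haao, which makes the precursor of quinolinate, at 713 ± 47.2 and 195 ± 104 CPM (log2 fold change 1.87, SE 0.25). Acmsd, which diverts that precursor away from quinolinate, went the other way, at 33.7 ± 10.2 CPM in vehicle livers against 187 ± 15.4 CPM in vehicle kidneys (-2.47, SE 0.22). Both aldehyde oxidases that oxidise methylated nicotinamide were far higher in liver, with Aox3 at 947 ± 165 CPM against 0.511 ± 0.165 CPM and Aox1 at 247 ± 98.5 CPM against 0.595 ± 0.429 CPM, in the organ where Nnmt was also higher.

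Toward kidney, the largest differences in vehicle mice were those of Slc5a8 and Slc22a13, carriers that can move nicotinate or other organic acids. Slc5a8 had 0 counts in all 10 livers and 108 ± 11.2 CPM in vehicle kidneys, at least 980-fold higher against a floor of 3 counts per liver library. Slc22a13 had 0 counts in the 4 vehicle livers, 4 counts in all in the 6 7c livers and 56.9 ± 6.00 CPM in vehicle kidneys. Bst1, a relative of Cd38, was at 0.238 ± 0.184 CPM in vehicle livers and 3.10 ± 1.69 CPM in vehicle kidneys, with log2 fold changes of -3.71 (SE 0.86) in vehicle mice and -2.07 (SE 0.63) in 7c mice. These 3 genes entered the fit through kidney, the organ where they were high, so their differences are given as a description. Nt5e, an ectonucleotidase that can release nicotinamide riboside and is named after its values were seen, was at 24.2 ± 3.80 CPM in vehicle livers and 115 ± 45.6 CPM in vehicle kidneys (log2 fold change -2.25, SE 0.36), and its -2.40 (SE 0.30) in 7c mice went beyond that of Bst1. Among the 5 other sirtuins, Sirt5 was higher in liver (0.82, SE 0.18), Sirt6 was higher in kidney (-0.65, SE 0.24), and Sirt2, Sirt4 and Sirt7 were not called. Nnt, which passes hydride from NADH to NADP+ in mitochondria, was low in every library, at 0.210 to 1.79 CPM in liver and 0.200 to 0.811 CPM in kidney (5 to 54 counts).

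Compared per kb of exon, Qprt and Naprt led in both organs. In vehicle livers the order was Qprt (62.9 ± 5.91 CPM per kb), Naprt (54.4 ± 6.45), Sirt3 (10.6 ± 1.09), Nmnat1 (8.60 ± 0.714), Nampt (8.20 ± 0.748), Nnmt (5.27 ± 4.95), Nadsyn1 (4.82 ± 0.573), Cd38 (3.37 ± 0.432), Sirt1 (2.35 ± 0.337) and Nmrk1 (2.23 ± 1.08). Over the 10 livers, Nmnat1 was above Nampt in 4, Nampt above Nnmt in 5, Nnmt above Nadsyn1 in 6 and Sirt1 above Nmrk1 in 5, so that these neighbours did not differ beyond their spread, whereas Naprt was above Sirt3 and Sirt3 above Nmnat1 in all 10. In vehicle kidneys Qprt (21.3 ± 0.914 CPM per kb) and Naprt (21.1 ± 8.81) were followed by Nampt (12.3 ± 3.47), and Sirt3, Nmnat1, Nmrk1 and Nadsyn1 lay together at 5.02 to 5.37. Sirt1 (1.98 ± 0.483), Cd38 (1.09 ± 0.289) and Nnmt (0.117 ± 0.0599) closed the order, with Sirt1 above Cd38 and Cd38 above Nnmt in all 10 kidneys. Qprt was above Naprt in 6 kidneys and Nmrk1 above Nadsyn1 in 3, so that these neighbours did not differ beyond their spread. The closeness of Sirt3, Nmnat1, Nmrk1 and Nadsyn1 depended on the length used. Per kb of the longest transcript, the vehicle kidneys gave 10.98 for Sirt3, 9.20 for Nmrk1, 6.88 for Nadsyn1 and 5.93 for Nmnat1. By that length Sirt3 was above Nmrk1 in 9 of 10 kidneys, and Nadsyn1 above Nmnat1 in 9 of 10. In vehicle mice Nampt thus held rank 5 of the 10 in liver and rank 3 in kidney, and Nnmt ranks 6 and 10. In the 7c livers Nnmt (14.1 ± 10.4 CPM per kb) stood above Sirt3 (11.1 ± 1.39) and Nampt (9.22 ± 1.38) above Nmnat1 (8.11 ± 0.724), so the middle of the liver order differed with the group it was read from.

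With the liver and kidney of the same replicate number taken as 1 mouse, the level of a gene in liver could be set against that in kidney. Over the 10 mice, log2 CPM of Nmrk1 correlated between the organs (Pearson r = 0.720, two-sided permutation p = 0.0186, Spearman rho = 0.745, permutation p = 0.0177, both unadjusted over 10 genes), with r = 0.710 after subtracting the treatment means. Without the 2 livers farthest from the median r was 0.619. The mice high in both were vehicle mouse 3 (17.4 CPM in liver, 42.2 CPM in kidney) and 7c mouse 3 (14.6 and 35.5 CPM), and those low in both were 7c mouse 4 (3.72 and 19.4 CPM) and vehicle mouse 4 (6.71 and 19.3 CPM). The highest liver, that of vehicle mouse 2 (18.3 CPM), went with 28.5 CPM in kidney. The lowest kidney, that of 7c mouse 1 (17.3 CPM), went with 10.95 CPM in liver. Of the 10 members, 1 reached r of 0.632, where 5.35% of the 14163 genes expressed in both organs did so. For the other 9 genes r ran from -0.215 (Cd38) to 0.451 (Qprt). Without the 2 farthest livers r was 0.685 for Qprt, above that of Nmrk1, and 0.413 for Sirt3 (-0.070 over all 10 mice). The order of the genes by r thus changed when 2 livers were left out for each gene. With 1 mouse left out at a time, r ran from 0.663 to 0.864 for Nmrk1 and from 0.263 to 0.559 for Qprt. For Nnmt r over all 10 mice was 0.064, with 7c mouse 5 next to lowest in liver and highest in kidney. That value rests on single mice, since it was 0.594 without 7c mouse 5 and -0.504 without vehicle mouse 1.

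**Figure D5:**
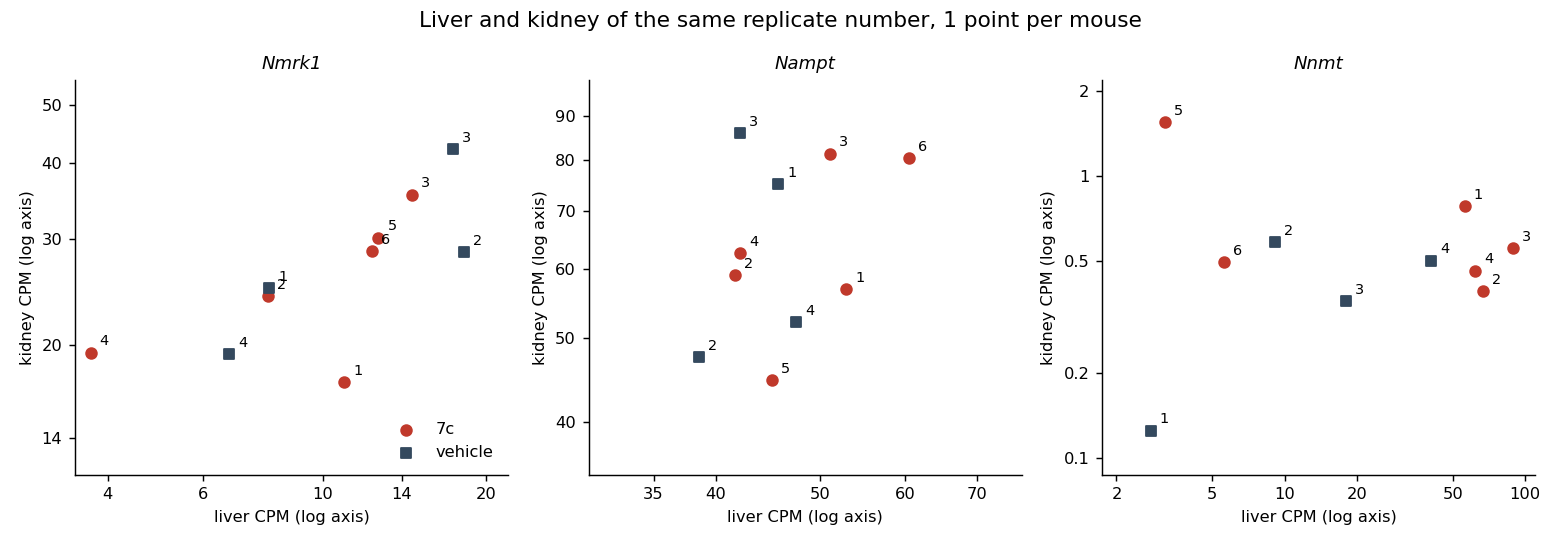
CPM in liver against CPM in kidney of the same mouse on log axes for Nmrk1, Nampt and Nnmt, with the replicate number beside each point, circles for 7c and squares for vehicle. Nmrk1 levels rise together (r = 0.720 on log2 CPM), and those of Nampt and Nnmt are scattered; in Nnmt, 7c mouse 5 (top left) and vehicle mouse 1 (bottom left) lie far apart from the rest.

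The genes whose levels moved most like a member across the 10 samples of an organ, after subtracting treatment means, differed between liver and kidney for each of the 3 members examined. For Nampt they were Samm50, Capzb and Mpi in liver (r = 0.910 to 0.917) and Dram2, Dhx33 and Mbtps2 in kidney (0.978 to 0.987). For Nnmt they were Galnt3, Gm69070 and Ercc8 in liver (0.944 to 0.965) and Tinf2, AW822252 and Gng14 in kidney (0.939 to 0.979), and for Cd38 Bmp2, Lilra5 and Tmem147os in liver (0.950 to 0.960) and Tmem45a, Nhsl1 and Acss2 in kidney (0.931 to 0.944). These are the highest of 15011 correlations in liver and 17748 in kidney over 10 libraries each, and describe likeness in these libraries only.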

How the data were processed

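The authors sequenced polyadenylated RNA, aligned it with STAR 2.7.11b to GRCm39 and counted reads per gene with featureCounts 2.0.6. The deposited values are raw counts for 57010 Ensembl genes, and the annotation release, strand setting and treatment of multiply mapped reads are not given in the sources used here. Symbols, coordinates and exon lengths came from GENCODE M39, and promoters from RefSeq. Genes with at least 10 counts in 50% of the samples of a fit were tested with edgeR 4.0.16 (quasi-likelihood F test, TMM, Benjamini-Hochberg threshold 0.05) in R 4.3.3, first checked on simulated data. The 7c comparisons used each organ alone, and the organ and difference comparisons used all 20 libraries. CPM share 1 TMM scale over all libraries, and log2 CPM use a prior count of 2. Exact permutation tests (scipy 1.17.1) used log2 CPM, and correlations used 100000 permutations, with p unadjusted. Intervals are 95% and the floor is 3 counts, covering counting error only. As alternatives, other filters, edgeR's likelihood ratio test, limma 3.58.1 (voom), DESeq2 1.42.0 and its RLE scaling were tried, with a prior count of 0.5, replicate blocks and leaving out each replicate. Those that leave out the kidneys of 7c mouse 5 and vehicle mouse 2, or 7c mice 4 to 6, were chosen after seeing the data. The members and lists were chosen with earlier results of these data known. The text names all 10 members, the 5 other sirtuins, any pathway gene called with 7c (there were 0), the 3 largest organ differences of vehicle mice in each direction, Tdo2, Haao, Acmsd and Nnt, and, for Nampt, Nnmt and Cd38, the 3 genes most like them. Liver and kidney of the same replicate number were taken as 1 mouse. Over 71 genes variable in both organs (SD over 0.8 log2 CPM, chosen after seeing the data) all 10 livers correlated best with their own number (r = 0.638 to 0.807, other numbers at most 0.223). Over 14163 genes, less group means, r was -0.101 to 0.204 for the same number and at most 0.273 for other numbers. There, 4 of 10 livers correlated best with their own number.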

Additional observations from a re-analysis of the deposited data

Results flagged for a closer look

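Of 40 sets of values (10 genes, 2 organs, 2 treatments), 5 held 1 sample far from the others by Dixon's test at its 95% critical value, where chance flags about 1 in 20. In the 7c livers, Naprt was at 165.8 CPM in mouse 3 (135.6 to 146.3 CPM in the others) and Nadsyn1 at 27.5 CPM in mouse 2 (36.3 to 41.2 CPM). In the kidneys, Naprt was at 85.3 CPM in vehicle mouse 2 (39.2 to 46.3 CPM), Nnmt at 1.55 CPM in 7c mouse 5 (0.391 to 0.781 CPM) and Sirt3 at 67.7 CPM in 7c mouse 5 (44.4 to 52.1 CPM). These 2 kidneys are the pair highest in Kap, with 48544 and 41697 CPM.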

How the results depend on the processing

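No member was called between 7c and vehicle, or for the difference between organs, under any alternative run, and leaving out each replicate gave 0 to 0 calls. Of the log2 fold changes recomputed, 187 of 190 in liver and 174 of 200 in kidney kept their direction, and the causes of the reversals were not tested. In the fit with the replicate number as a block, kidney Nampt turned to 0.0061, Nmnat1 to -0.038, Qprt to -0.087 and Sirt1 to 0.019. Liver Nnmt stood at 2.47 in that fit (unadjusted p = 0.00105, adjusted p = 1.00 in edgeR). No vehicle mouse carries the number 5 or 6, so 7c mice 5 and 6 added nothing to the 7c effect there. Their livers were low in Nnmt (3.18 and 5.62 CPM), so this value leaves out the low 7c livers. The numbers do not pair 7c with vehicle mice (1 of 8 pairs of the same organ correlated above 0.1, r = -0.0632 to 0.301). The mouse block changed no member's call between organs. limma-voom gave kidney Qprt -0.0060. Without the kidneys of 7c mouse 5 and vehicle mouse 2, kidney Qprt was -0.029, kidney Sirt3 -0.014 and Sirt1 between the organs of 7c mice -0.038. Without 7c mice 4 to 6, liver Qprt was -0.079 and kidney Naprt -0.14, Nmnat1 -0.078, Qprt -0.22 and Sirt1 0.043. Leaving out each replicate gave, with 7c in liver, Sirt3 -0.023 to 0.10, and, with 7c in kidney, Nampt -0.15 to 0.13, Nmrk1 -0.31 to 0.085, Naprt -0.033 to 0.46, Nmnat1 -0.041 to 0.11, Qprt -0.056 to 0.11, Cd38 -0.27 to 0.013 and Sirt1 -0.20 to 0.074. Between organs, it gave Nadsyn1 -0.18 to 0.0040 in vehicle mice and Sirt1 -0.043 to 0.18 in 7c mice, with 7 to 8 members called in each treatment and 22 to 23 pathway genes called in vehicle mice. The count of members correlated between organs ran from 0 to 1, with 0 without vehicle mouse 3. With the longest transcript as length, 5 of 10 members kept their rank in kidney, and Sirt3, Nmrk1, Nadsyn1 and Nmnat1 no longer lay together there. Depth limited Nnmt in kidney (6 to 64 counts per library).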
